A study of Xenopus laevis with 6 samples.

Results

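The Rbm genes encode proteins that carry an RNA recognition motif, and the 68 genes described here were taken from 42549 genes of the deposited table. They were chosen by name: symbols that begin with rbm and a digit, together with rbms1, rbms2, rbms3, rbmx, rbmx2, rbpms, rbpms2, msi1 and msi2, each with its .L or .S ending. The family was proposed for description while the authors' statistics on stretching were known, so its choice is not independent of them. The study compared wild type Xenopus laevis double explants of neuroectoderm, made at stage NF 11.5 by placing pieces in pairs with their inner sides together. The 3 stretched samples came from explants that were elongated mechanically over 3 h, and the 3 control samples from explants that were held in place without elongation. The series describes the replicates of each group as biologically independent, and the sources used here do not give the number of explants in a sample.

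The question of the design, whether stretching alters expression, is not answered here for these genes. The table holds no values of single samples, and its columns on the effect of stretching are the authors' own comparison, which was not used. What was analysed is the average log2 CPM (counts per 1000000 reads) of each gene, a single value over control and stretched samples together. It has no spread between replicates, and no test between groups could be made. It states how much of the sequenced RNA came from each gene over both kinds of explants pooled, and not the level in either kind alone.

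The RNA recognition motif is a small fold that binds short stretches of single-stranded RNA, and a protein may carry 1 or more copies of it. Proteins with this motif act at nearly every step in the life of a messenger RNA, from splicing and export to translation and decay. In the frog embryo several of them are known for restricted expression, such as the Musashi proteins in neural progenitors and the Hermes protein rbpms2 in the heart. Xenopus laevis arose from a cross of 2 species, and homeologs are the copies of a gene that descend from each of them, named .L and .S. The 68 rows belong to 43 symbols, with 38 .L and 30 .S copies. For 25 symbols both homeologs were present, and for the other 18 symbols only a single homeolog. RefSeq's annotation of the v10.1 assembly of Xenopus laevis contains all 68 names, and for none of the 18 single copies does it list the other homeolog under the same symbol.

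The depth behind the averages could be read from the lowest values. Of all genes, 12476 stood at the same lowest log2 CPM of -2.08, taken as the value of a gene with no reads. The genes with the next lowest values, 2346 in number, took 6 distinct values, 1 for each library that a lone read can fall in, and those above them 21 distinct values, as 2 reads in 6 libraries allow. With a prior count of 2 per library, 9454 of the 9458 genes with 1 to 20 reads gave a total within 0.05 of a whole number. The same conversion gave an average of about 8446369 counted reads per library, or 50678216 over all 6. The methods of the study give a larger number of reads generated per sample, and the difference was not examined. Read numbers below are such estimated totals over the 6 libraries. A gene with no reads could hold up to 3 reads, or 0.0592 CPM. These limits and the intervals below cover counting error only.

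Reads are given per gene and not per length, since no transcript lengths were at hand. A longer transcript yields more reads, so that values of different genes are shares of the reads and not numbers of RNA molecules. Reads were 50 bp long according to the methods of the study, and the sources used here do not state how those that match both homeologs were assigned.

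Rbm genes were widely represented in the explants. Of the 68 genes, 67 had at least 1 read and 60 (88.2%) had an average log2 CPM above 1, against 38.8% of all genes of the table and 61.7% of the 22225 rows named .L or .S. The median over the Rbm genes was a log2 CPM of 5.77, with quartiles of 4.13 and 7.24. The median was -0.86 over all genes, 1.62 over genes with reads and 2.48 over rows named .L or .S. In all the Rbm genes took 434062 reads, which is 0.854% of the 50809589 reads summed over the rows of the table. The 88 genes of the srsf, hnrnp, snrp and sf3 families, which make up much of the general splicing machinery, had a median log2 CPM of 8.29 and took 5.55% of the same total. These are descriptions of pooled averages, and no test of the difference was made.

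**Figure D1:**
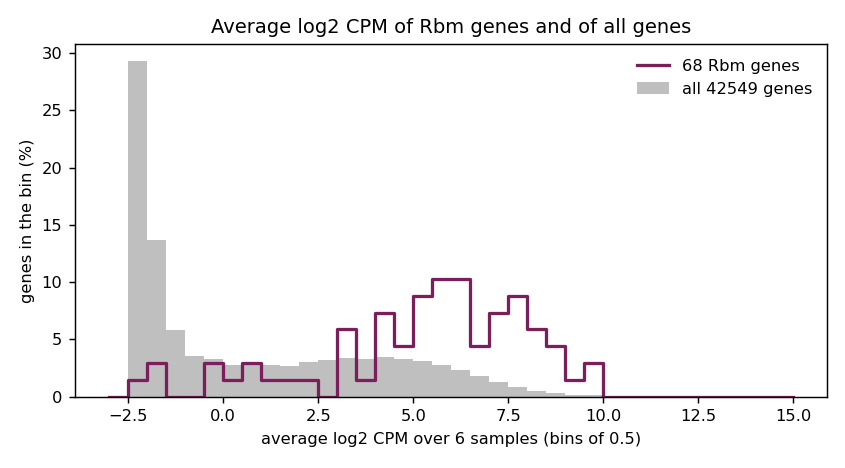
Percentage of genes in each bin of average log2 CPM (x axis, bins of 0.5) for all 42549 genes (grey bars) and the 68 Rbm genes (line). Most Rbm genes lie between 3 and 10, while 29.3% of all genes fall in the bin that holds the value of a gene with no reads.

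The reads were spread unevenly within the family. The 5 genes with the most reads, rbmx.S, rbmx.L, rbm4b.S, rbm25.S and rbm5.L, took 35.9% of the reads of the family, and the first 10 took 55.3%. In contrast, 8 genes had a log2 CPM of 1 or less, namely msi2.S, rbm11.L, rbm46.L, rbm4.L, rbm48.S, rbm11.S, rbms3.L and rbpms.S. Between these ends, 3 genes lay from 1 to 3, 26 from 3 to 6, 21 from 6 to 8 and 10 above 8 on the log2 scale.

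**Figure D2:**
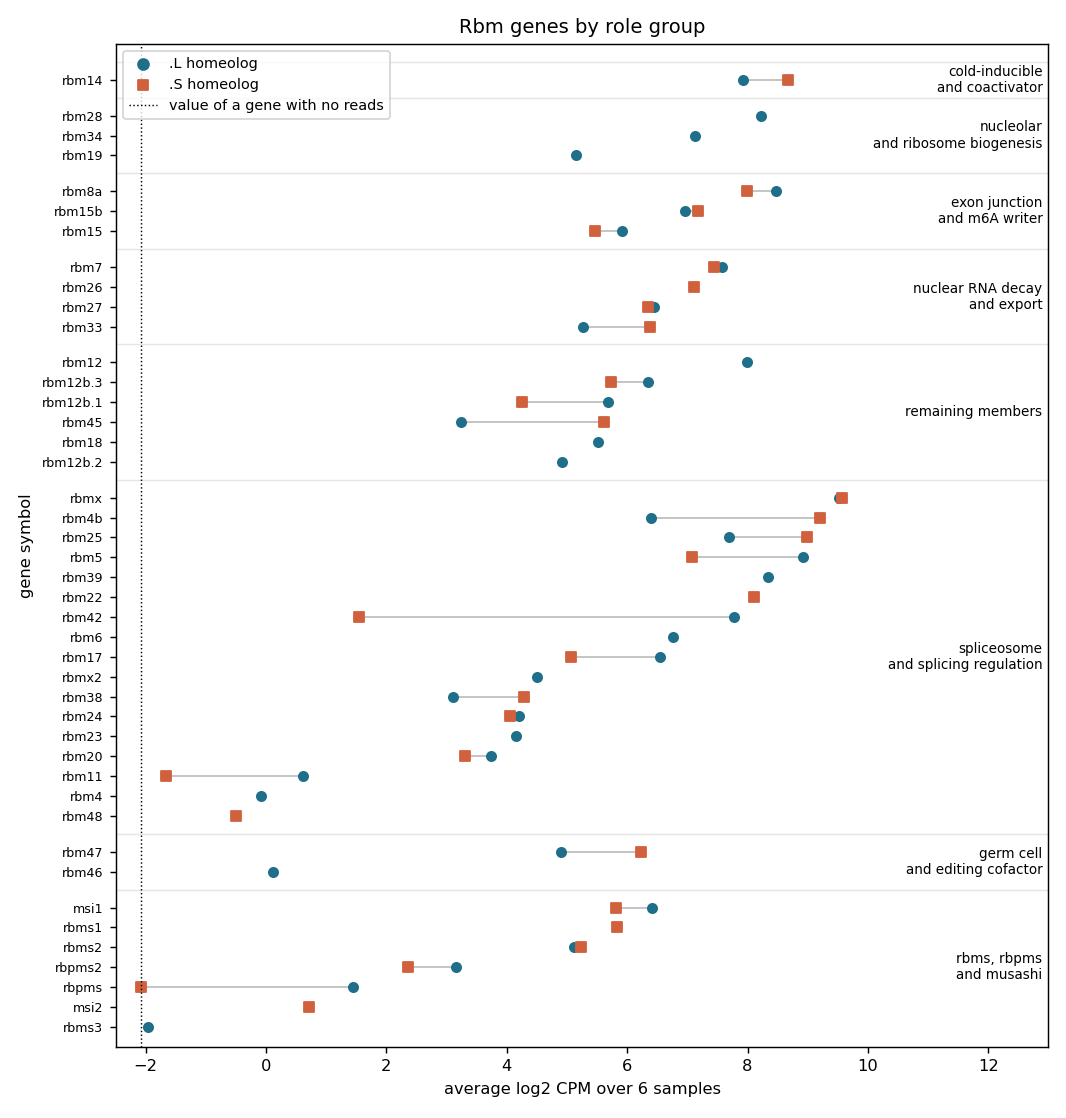
Average log2 CPM (x axis) of each Rbm gene, with symbols on the y axis arranged by role group, circles for .L and squares for .S, and a grey line joining homeologs. The dotted line marks the value of a gene with no reads (-2.08), where rbpms.S lies; rbmx is at the other end, at 9.52 (.L) and 9.58 (.S).

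Genes of the spliceosome and of splicing regulation formed the largest group, with 27 genes of 17 symbols. They took 54.7% of the reads of the family. Of the 27, 23 (85.2%) had a log2 CPM above 1, against 88.2% of all Rbm genes and 61.7% of all rows named .L or .S. rbmx, which encodes an hnRNP-like regulator of splicing, had a log2 CPM of 9.52 for rbmx.L (37190 reads) and of 9.58 for rbmx.S (38658 reads). These were the highest averages of the family, and both lay at percentile 99.5 of the genes with reads. rbm25, whose protein regulates splice site choice together with the U1 particle, had 10466 reads for rbm25.L and 25782 for rbm25.S.

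Genes of core or widely used splicing factors followed. rbm39.L, which encodes a relative of the U2AF splicing factor that also acts as a transcriptional coactivator, stood at a log2 CPM of 8.34, whereas its paralog rbm23.L stood at 4.15. rbm22.S, whose product sits next to the catalytic centre of the spliceosome, was at 8.10. The regulators of alternative splicing rbm5 and rbm6 were at 8.91 for rbm5.L, 7.08 for rbm5.S and 6.76 for rbm6.L. rbm5.L and rbm6.L are adjacent coding genes in the RefSeq annotation. rbm17, a gene for a factor of 3′ splice site recognition, stood at 6.54 (rbm17.L) and 5.07 (rbm17.S), and rbmx2.L at 4.50.

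Some of the splicing genes are known from muscle or other differentiated tissues. rbm20, which controls splicing of titin in the mammalian heart, had a log2 CPM of 3.73 for rbm20.L (662 reads) and of 3.30 for rbm20.S (489 reads). The counting intervals of these totals, 613 to 714 and 446 to 534 reads, do not overlap. Those of the nearly even pairs rbmx, rbm7 and rbm27 do not overlap either, whereas those of rbm24 and rbms2 do. How often the intervals of both totals stay apart over all pairs was not computed. The Wilson interval of the share of rbm20 reads on .L, 54.6 to 60.3%, left out an even division. The interval of that share did so in 92.8% of all homeolog pairs with at least 70 reads. rbm24, whose product acts on muscle transcripts, had 4.20 for rbm24.L (919 reads) and 4.06 for rbm24.S (832 reads). Its paralog rbm38 had 3.11 for rbm38.L and 4.29 for rbm38.S. rbm11, a splicing regulator of brain and testis in mammals, had 66 reads for rbm11.L and 4 for rbm11.S. rbm48.S, which in human cells serves the minor spliceosome, had 24 reads.

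rbm4 and rbm4b are paralogs with roles in splicing and translation, and their rows were far apart. rbm4.L had 36 reads and a log2 CPM of -0.08, while rbm4b.L had 6.39 and rbm4b.S 9.21. rbm4b.L and rbm14.L are neighbours in the RefSeq annotation. Paralogs of this kind share sequence, and the split of reads among them is uncertain.

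The exon junction and m6A writer group took 11.5% of the reads of the family with 6 genes. All 6 had a log2 CPM above 1, against 61.7% of all rows named .L or .S. rbm8a encodes Y14, a core subunit of the exon junction complex, which marks spliced RNA. It was at 8.47 for rbm8a.L (18017 reads) and 7.99 for rbm8a.S (12834 reads). Its binding partner magoh stood at 7.13 (magoh.L) and 7.15 (magoh.S), and all 11 rows of the exon junction and nonsense-mediated decay list were above 1, with a median of 6.56 (eif4a3, another core subunit on that list, was not analysed here). rbm15 and rbm15b, whose products bring the enzyme that methylates adenosine to its target RNAs, were at 5.91 (rbm15.L), 5.46 (rbm15.S), 6.96 (rbm15b.L) and 7.18 (rbm15b.S). The other subunits of that enzyme were also represented, with 9 of 9 rows above 1 and values of 6.63 for mettl3.L and 6.79 for mettl14.L.

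Genes of nuclear RNA decay and export all had a log2 CPM above 1, as did 61.7% of all rows named .L or .S. The 7 rows ranged from 5.27 (rbm33.L) to 7.58 (rbm7.L). rbm7 encodes the RNA-binding subunit of an adaptor of the nuclear exosome and had 9681 reads for rbm7.L and 8793 for rbm7.S. Its partner subunits stood at 7.73 (zcchc8.L), 7.84 (mtrex.S) and 4.83 (mtrex.L). rbm26.S (7.12), rbm27.L (6.44) and rbm27.S (6.34) encode zinc finger proteins of the pathway that removes polyadenylated nuclear RNA, and all 7 rows of the exosome adaptor list were above 1.

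The nucleolar genes rbm28.L, rbm34.L and rbm19.L, related to yeast factors of ribosome biogenesis, had a log2 CPM of 8.22, 7.12 and 5.15. rbm14, which encodes a coactivator and component of nuclear paraspeckles, was at 7.93 (rbm14.L) and 8.67 (rbm14.S). rbm47, whose protein acts as a cofactor of cytidine-to-uridine editing in mammals, was at 4.90 (rbm47.L) and 6.23 (rbm47.S). rbm46.L, a relative of it needed for meiosis in mice, had 43 reads.

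The rbms, rbpms and musashi genes were the group with the fewest reads for its size, 3.36% of the family's reads over 11 rows. msi1 encodes Musashi, a translational regulator of neural progenitors, and had a log2 CPM of 6.42 for msi1.L (4316 reads) and of 5.81 for msi1.S (2827 reads). Its paralog msi2.S had 71 reads (0.71 on the log2 scale). Of the genes for single-strand binding proteins, rbms1.S was at 5.84, rbms2.L at 5.12 and rbms2.S at 5.24, whereas rbms3.L was represented by 1 read. Among the genes of the Hermes type, rbpms2.L had 440 reads and rbpms2.S 247, rbpms.L had 125 and rbpms.S none.

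The remaining 9 rows were rbm12, the rbm12b cluster, rbm18 and rbm45. rbm12.L was at 7.99 and rbm18.L at 5.52. The rbm12b genes are tandem copies, as rbm12b.3.L and rbm12b.2.L are adjacent in the RefSeq annotation, and so are rbm12b.3.S and rbm12b.1.S. Their averages were 6.34 (rbm12b.3.L), 5.73 (rbm12b.3.S), 5.68 (rbm12b.1.L), 4.92 (rbm12b.2.L) and 4.26 (rbm12b.1.S). Reads shared among these copies could have been counted for any of them or for none. rbm45, an RNA-binding protein gene of developing neurons, is described with the homeologs.

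Reads were divided unequally between many homeologs. Of the 25 pairs, 15 had more reads on .L and 10 more on .S, so that .L was larger in 60% of pairs, against 56.2% of the 7460 pairs of the table with reads in either homeolog. The median absolute difference was 0.80 on the log2 scale for the Rbm pairs and 0.99 for those 7460 pairs. In 13 of the 25 pairs (52%) the homeologs differed by less than 1, compared with 50.4% of the 7460 pairs. In none of the 25 did the 95% Wilson interval of the share on .L contain an even division, and it left out an even division in 82% of the 7460 pairs as well, or in 92.8% of the 5699 pairs with at least 70 reads, the fewest of an Rbm pair. That interval is narrow where reads are many, and it leaves out the spread between samples, which is unknown.

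**Figure D3:**
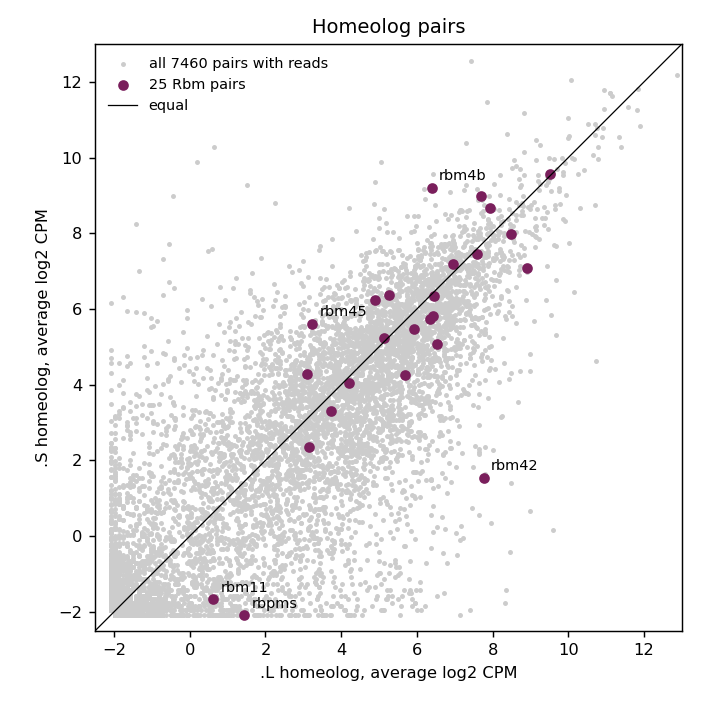
Average log2 CPM of the .L homeolog (x axis) and the .S homeolog (y axis) for 25 Rbm pairs (dark points) and all 7460 pairs with reads in either homeolog (grey). The 5 named pairs differ by more than 2 on the log2 scale; rbm42 is the farthest from the line of equal values.

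In 5 pairs (20%) the difference exceeded 2 on the log2 scale, as it did in 25.7% of the 7460 pairs. rbm42 encodes a protein with a single recognition motif that binds hnRNP K in mammals. It had 11071 reads on rbm42.L and 136 on rbm42.S, an 81.4-fold difference, with 98.8% of the reads on .L (95% Wilson interval 98.57 to 98.97%). rbm4b was divided the other way, with 4241 reads on rbm4b.L and 29955 on rbm4b.S (87.6% on .S, interval 87.2 to 87.9%). For rbm45, 466 reads were on rbm45.L and 2468 on rbm45.S (15.9% on .L, interval 14.6 to 17.2%).

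The other 2 pairs had few reads. rbm11.L held 66 of 70 reads of its pair (94.3%, interval 86.2 to 97.8%). For rbpms all 125 reads were on rbpms.L (interval 97.0 to 100%). In both pairs a few misassigned reads would move the share.

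**Figure D4:**
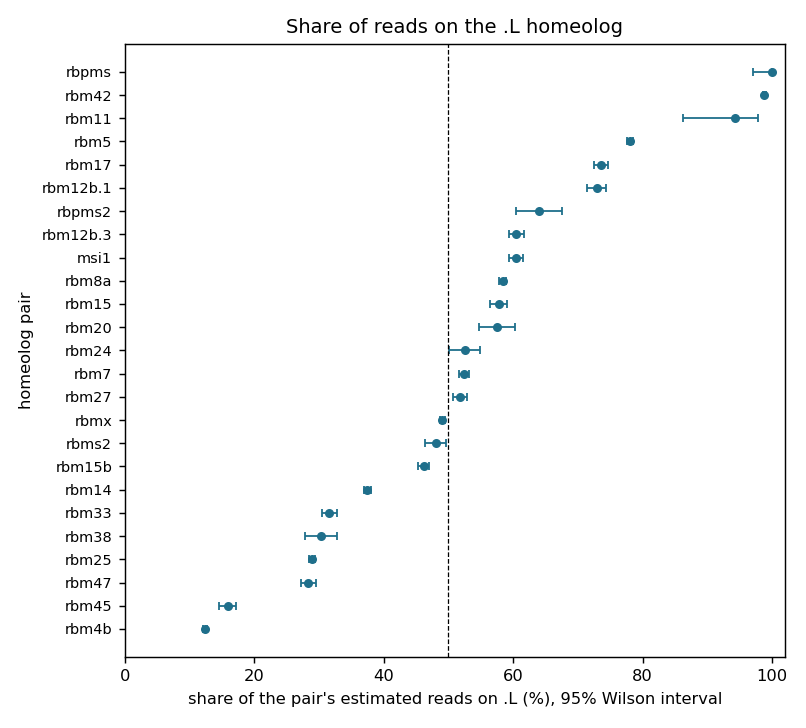
Share of a pair's estimated reads on the .L homeolog (x axis, %) for the 25 Rbm pairs (y axis), with 95% Wilson intervals as bars and an even division as the dashed line. The shares are lowest for rbm4b and reach 100% for rbpms, and rbmx, rbm27, rbm7, rbm24 and rbms2 lie closest to an even division.

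Several pairs with many reads were nearly even. rbmx had 49.0% of its reads on .L (interval 48.7 to 49.4%), rbm7 had 52.4% (51.7 to 53.1%) and rbm27 had 51.8% (50.7 to 52.8%). For rbm24 the share was 52.5% (50.1 to 54.8%), and for rbms2 it was 48.0% (46.4 to 49.7%). Between these and the uneven pairs lay msi1 with 60.4% on .L, rbm8a with 58.4%, rbm20 with 57.5% and rbpms2 with 64.0%. Among splicing genes, rbm5 had 78.1% and rbm17 had 73.5% on .L, while rbm25 had 28.9% and rbm38 had 30.2%.

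Other RNA-binding protein genes known for regulated expression showed a wide range as well, with a median of 6.15. Of the 17 rows of that list 13 (76.5%) were above 1, against 61.7% of all rows named .L or .S. elavl1, which is broadly expressed, was at 6.92 (elavl1.L) and 7.56 (elavl1.S), and elavl3.L, a marker of early neurons, at 6.80. elavl4.L, also a gene of neurons, had no reads, and neither had celf2.S. The cold-inducible gene cirbp took the most reads of that list, with 377955 on cirbp.L.

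The tissue label was compared with lists of marker genes. All 13 rows of the neural plate list had a log2 CPM above 1, among them sox3.S at 8.07, zic1.S at 7.03 and sox2.L at 5.84. The lowest of them was ncam1.S at 1.39. Of 10 rows of epidermal genes 9 were above 1, with grhl3.L at 9.23, krt12.5.S at 9.89, tp63.S at 3.11 and tp63.L at -1.41. The median of the epidermal list was 8.40, above the 5.84 of the neural plate list. The neural plate list also held gmnn, at 5.84 (gmnn.L) and 6.96 (gmnn.S), and its median is the value of gmnn.L. Among 5 mesodermal rows 3 were above 1, with tbxt.L at 5.84 and tbxt.S at 6.79. According to the paper, the explants include the marginal zone, where tbxt is expressed at the middle gastrula stage. The rows of myf5 and tbx6 were at 1.05 or less. Of 6 endodermal rows 2 were above 1, with none above 1.26. For comparison, 61.7% of all rows named .L or .S were above 1. The listed genes myod1 and sox17b were not analysed here. Which cells the Rbm reads came from was not tested. In bulk samples, fewer cells of a type and less RNA per cell cannot be told apart.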

How the data were processed

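Poly(A) RNA of 3 control and 3 stretched samples was sequenced. The study's methods name STAR and DESeq2, while TopHat2, HTSeq, DESeq and edgeR, without versions, stand in the notes of the submitters on processing. The genome build is not given in the sources used here. Deposited by the authors was 1 table with an average log2 CPM per gene, which was used, and 4 columns of their own comparison (fold change, F, p-value and FDR), which were not. Only averages over all samples were at hand, so the planned count test was not run.

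Estimated reads of a gene were 12 times (2 to the power of its log2 CPM minus the lowest log2 CPM, minus 1), for a prior count of 2 in each of 6 libraries, a setting inferred from the values. The conversion was tested on data simulated with the same prior count and 6 libraries, so that test could not check these settings. The conversion is approximate for genes that vary between samples. Estimated reads summed over the rows came to 50809589, more than the 50678216 estimated for the 6 libraries, so the read estimates are not exact. A log2 CPM above 1 served as a threshold of expression. Shares have 95% Wilson intervals and totals 95% exact Poisson intervals. Python 3.11.15 with numpy 2.4.6, scipy 1.17.1, pandas 2.3.3 and matplotlib 3.10.9 was used.

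The members and lists were chosen with earlier results of these data known. Named by rule were all homeologs of 11 symbols (msi1, msi2, rbpms, rbpms2, rbms1, rbms2, rbms3, rbmx, rbm8a, rbm20 and rbm24), the highest and lowest member of each role group, pairs more than 2 apart on the log2 scale, the 5 highest and 5 lowest members and those without reads. The highest and lowest were ranked by reads, since levels per length and protein identity of homeologs, both planned, were not computed without lengths or sequences. Other members were named after their values were seen. RefSeq (Xenopus laevis v10.1) served for names and neighbours only. rbm3, rbm10, rbm41 and rbm44, listed by role, were not analysed here.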

Additional observations from a re-analysis of the deposited data

How the results depend on the processing

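The median log2 CPM of the Rbm genes was 5.77 and moved to 5.81 without the gene at the lowest value, to 6.28 over genes above 1, and to 6.71 with homeologs summed (all genes: 1.62, 4.16 and -1.02). Above a log2 CPM of 0 there were 63 Rbm genes, and above 3 there were 57, against 60 above 1. The median difference of .L minus .S was 0.141 on the log2 scale. It became 0.139 over pairs with both homeologs above 1, and 0.141 from estimated reads without the prior count, an alternative chosen after seeing the data, which leaves out rbpms. No paired analysis was possible because only averages over all samples were at hand. For the same reason the other tool, the other normalization and leaving out replicates were not run. Differences per length and protein identity were not run either. Depth limits the genes with few reads, namely rbms3.L with 1, rbm11.S with 4, rbm48.S with 24 and rbpms.S with none.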
